A study of Mus musculus with 8 samples.

Results

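Elastic fibres are built from a core of crosslinked elastin laid on a scaffold of fibrillin microfibrils, and the same crosslinking enzymes stabilise collagen fibrils. Fibulins carry elastin and the enzymes to the scaffold, and the lysyl oxidases, which need copper, oxidise lysine residues so that neighbouring chains join. In bone marrow, stromal cells secrete this matrix around the developing blood cells. The genes described here are Eln (elastin), Fbn1 (fibrillin-1), the fibulins Fbln1, Fbln2, Fbln5, Efemp1 and Efemp2, and the crosslinking enzymes Lox, Loxl1 and Loxl2. They were chosen by gene symbol, and every probe set, the group of short probes that reports a transcript, that the array annotation gives 1 of these symbols was read in all groups.

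Of the 10 genes, 7 had a probe set of their own, 15 probe sets in all of 45101 on the array. No probe set in the annotation used carried the symbol of Fbn1 or Efemp2, which were not analysed here. Loxl2, which also crosslinks collagen and elastin, shared its 2 probe sets with Gm21451, and their values lay between 9.94 and 28.4 on all arrays, so that no level was assigned to it. Of the 7 genes, 6 reached 100 on at least 2 of the 8 arrays and were tested together with all other genes that did so, 10101 of 18194 named genes. Eln stayed below 100 on every array.

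Mouse cells of 4 groups were measured, with 2 arrays per group: OP9 bone marrow stroma grown together with pre-B cells of the line 230-238, OP9 cells without them, the osteoblast-like line MC3T3, and the embryonic fibroblast line NIH3T3. The labels give the strain as B6C3F1 for both OP9 groups and Balb/c for the other lines. By the methods of the study, the OP9 cells carried the red fluorescent protein mStrawberry from a retrovirus, were taken up with trypsin and sorted on red fluorescence. As the study describes its co-culture experiment, the OP9 cells without pre-B cells were kept in conditioned medium from the parallel co-culture. The sample titles name neither this medium nor the fluorescent protein. OP9 cells were maintained in OptiMEM and both other lines in DMEM. In the comparisons of OP9 cells with the other lines, the cell line therefore cannot be told apart from its strain label and medium. The same holds for the retrovirus, the sorting and the conditioned medium named above. One MC3T3 array is described as sorted cells and the other as a culture. Replicates are named biological in the labels, which describe no separate cultures, and the p-values therefore measure only how far the arrays of a group spread, possibly for technical reasons. The same 2 OP9 arrays entered the comparison with the co-culture and those with both other lines.

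The values are normalized intensities on a linear scale, and all levels below are in this unit. Array medians ran between 41.77 and 44.99. The median gene differed between the arrays of a group by 0.0688 on the log2 scale in co-cultured OP9 cells, 0.0697 in OP9, 0.0885 in MC3T3 and 0.143 in NIH3T3 cells. Of 8 bone marrow stroma genes, 7 reached 100 on both arrays in OP9 cells with and without pre-B cells, and the exception was Lepr. Of 6 osteoblast markers read, 2 reached 100 on both MC3T3 arrays, Col1a1 at 2239 and 2200 and Dmp1 at 970 and 1142, and Sp7, Alpl, Ibsp and Phex did not. In NIH3T3 cells 6 of 8 fibroblast genes reached 100, and Thy1 and Dcn did not. By these counts the lists do not separate the lines. MC3T3 cells had 7 of 8 stroma genes and 8 of 8 fibroblast genes at 100 on both arrays, and NIH3T3 cells 5 of 8 stroma genes. OP9 cells had 6 of 8 fibroblast genes. OP9 and NIH3T3 cells each had 2 of 6 osteoblast markers, and Col1a1 was lower in MC3T3 cells than in every other group. The number of arrays limits the precision.

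The start regions of Fbln2, Fbln5 and Efemp1 are shown because Fbln2 and Fbln5 were called in opposite directions in the co-culture and Efemp1 had the widest range between groups. They are RefSeq sequences of the mouse assembly GRCm38.p6, from 250 bases before the start to 50 after it, in the direction of transcription. Capitals mark matches on either strand to AP-1 (TGANTCA), the SMAD box (CAGAC), the CCAAT box (CCAAT) and the GC box (GGGCGG).
Fbln2, chr6:91212514-91212813, plus strand: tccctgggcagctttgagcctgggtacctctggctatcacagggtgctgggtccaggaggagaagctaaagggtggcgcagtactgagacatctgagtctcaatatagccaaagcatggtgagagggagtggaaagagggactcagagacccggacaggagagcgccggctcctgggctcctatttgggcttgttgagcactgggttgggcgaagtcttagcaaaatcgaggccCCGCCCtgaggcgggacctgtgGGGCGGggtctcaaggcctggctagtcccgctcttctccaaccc
Fbln5, chr12:101819070-101819369, minus strand: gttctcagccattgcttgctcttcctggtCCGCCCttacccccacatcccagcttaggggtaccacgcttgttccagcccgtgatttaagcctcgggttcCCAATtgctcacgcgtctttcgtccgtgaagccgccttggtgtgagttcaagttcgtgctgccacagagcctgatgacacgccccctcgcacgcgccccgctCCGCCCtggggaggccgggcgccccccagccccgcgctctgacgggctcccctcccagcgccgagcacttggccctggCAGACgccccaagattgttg
Efemp1, chr11:28852955-28853254, plus strand: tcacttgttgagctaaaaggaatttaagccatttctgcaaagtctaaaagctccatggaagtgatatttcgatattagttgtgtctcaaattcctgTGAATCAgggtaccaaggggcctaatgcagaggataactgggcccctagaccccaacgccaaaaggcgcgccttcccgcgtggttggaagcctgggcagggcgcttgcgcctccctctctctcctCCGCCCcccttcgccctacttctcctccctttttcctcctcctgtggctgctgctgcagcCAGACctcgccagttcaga
The Fbln2 window held 2 GC boxes and none of the other motifs searched. The Fbln5 window, the upstream one of 2 for this gene, held 2 GC boxes, 1 CCAAT box and 1 SMAD box, and the other window held 2 SMAD boxes. The Efemp1 window held 1 AP-1 match, 154 bases before the start, with 1 GC box and 1 SMAD box. Over the 32851 windows of all genes, 7.81% held an AP-1 match, 49.6% a SMAD box, 37.4% a CCAAT box and 35.7% a GC box. TATAAA, searched as well, was found in 13.6% of all windows and in none of the 3 shown. A match is a run of letters in the window and not a measured site. Of the 10 genes, 6 had a window in the table used, and no sequence is shown for the other 4, Eln, Lox, Loxl1 and Loxl2.

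The first comparison set OP9 cells grown together with pre-B cells against OP9 cells without them. By the study's description, the latter were kept in medium from the parallel co-culture, so factors secreted into the medium could reach both groups. In co-culture the fibulins Fbln2 and Fbln5 of OP9 cells moved in opposite directions, while the crosslinking enzymes Lox and Loxl1 were not called. Fbln2, encoding a fibulin of basement membranes and microfibrils, rose about 2-fold, and Fbln5, encoding the fibulin that binds elastin, integrins and LOXL1, was 2.87-fold lower. Differences counted as called when limma's adjusted p was under 0.05 and the levels were at least 2-fold apart. By this rule 1 of the 6 tested genes was called higher, beside 2.73% of all tested genes, and 1 lower, beside 2.99%. The median log2 difference was -0.01 over the 6 genes and -0.05 over all genes tested.

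Fbln2 was at 1854 and 1852 in co-cultured OP9 cells, against 893 and 936 in OP9 cells. Both co-culture arrays lay well above both OP9 arrays. The difference was 1.02 on the log2 scale (SE 0.07), which is 2.03-fold with a 95% interval of 1.81 to 2.27 (adjusted p = 3.83e-05 from limma). The value stands close to the 2-fold limit, and it was 0.99 on the log2 scale with the arrays scaled to 1 median and 0.99 without OP9 replicate 1, which ends the call. Fbln5 was at 811 and 769 in co-cultured OP9 cells, against 2249 and 2287 in OP9 cells. The arrays of the groups lay far apart, and the difference was -1.52 on the log2 scale (SE 0.09), a 2.87-fold lower level with a 95% interval of 2.47 to 3.35 (adjusted p = 2.26e-05 from limma). Averaging each gene over all its probe sets gave 0.58 for Fbln2 and -0.88 for Fbln5 and ended both calls. The second Fbln2 probe set lay between 9.67 and 23.4 on all arrays and the second Fbln5 probe set between 14.1 and 23.5.

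Efemp1, encoding the extracellular protein fibulin-3, was at 6680 and 7047 in co-cultured OP9 cells, against 4734 and 5325 in OP9 cells. The arrays did not overlap, but the difference was 1.37-fold and so was not called (log2 0.45, SE 0.11, adjusted p = 0.0149 from limma). Lox, encoding the founding lysyl oxidase, was at 5325 and 5163 in co-cultured OP9 cells, against 6025 and 5807 in OP9 cells. Its log2 difference was -0.17, with a 95% interval of -0.32 to -0.02 (adjusted p = 0.0635 from limma). Loxl1, whose product is needed to renew elastic fibres in mice, was at 2872 and 2811 in co-cultured OP9 cells, against 3146 and 3471 in OP9 cells, a log2 difference of -0.22 with a 95% interval of -0.46 to 0.03 (adjusted p = 0.138 from limma). The second, dimmer Loxl1 probe set was at 95 and 114 in co-cultured OP9 cells, against 154 and 169 in OP9 cells, and gave a log2 difference of -0.64 (adjusted p = 0.00835 from limma, over all probe sets that reached the minimum), also short of 2-fold. Fbln1, encoding a fibulin that binds fibronectin, was below 100 in both groups, at 63.5 and 64.4 in co-cultured OP9 cells against 56.8 and 58.7 in OP9 cells (adjusted p = 0.107 from limma).

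Eln was at 77.7 and 79.7 in co-cultured OP9 cells, against 60.4 and 50.9 in OP9 cells, on the probe set with the higher mean. On its other probe set it was at 81.8 and 78.8 in co-cultured OP9 cells, against 41.6 and 44.1 in OP9 cells. On both probe sets the co-culture arrays lay above the OP9 arrays, all of them below the minimum of the test. In a fit without that minimum the first probe set gave a log2 difference of 0.51 (SE 0.15) and an adjusted p of 0.0525 from limma. In OP9 cells the elastin value lay at the 54.9th percentile of the probe sets of the array.

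**Figure D1:**
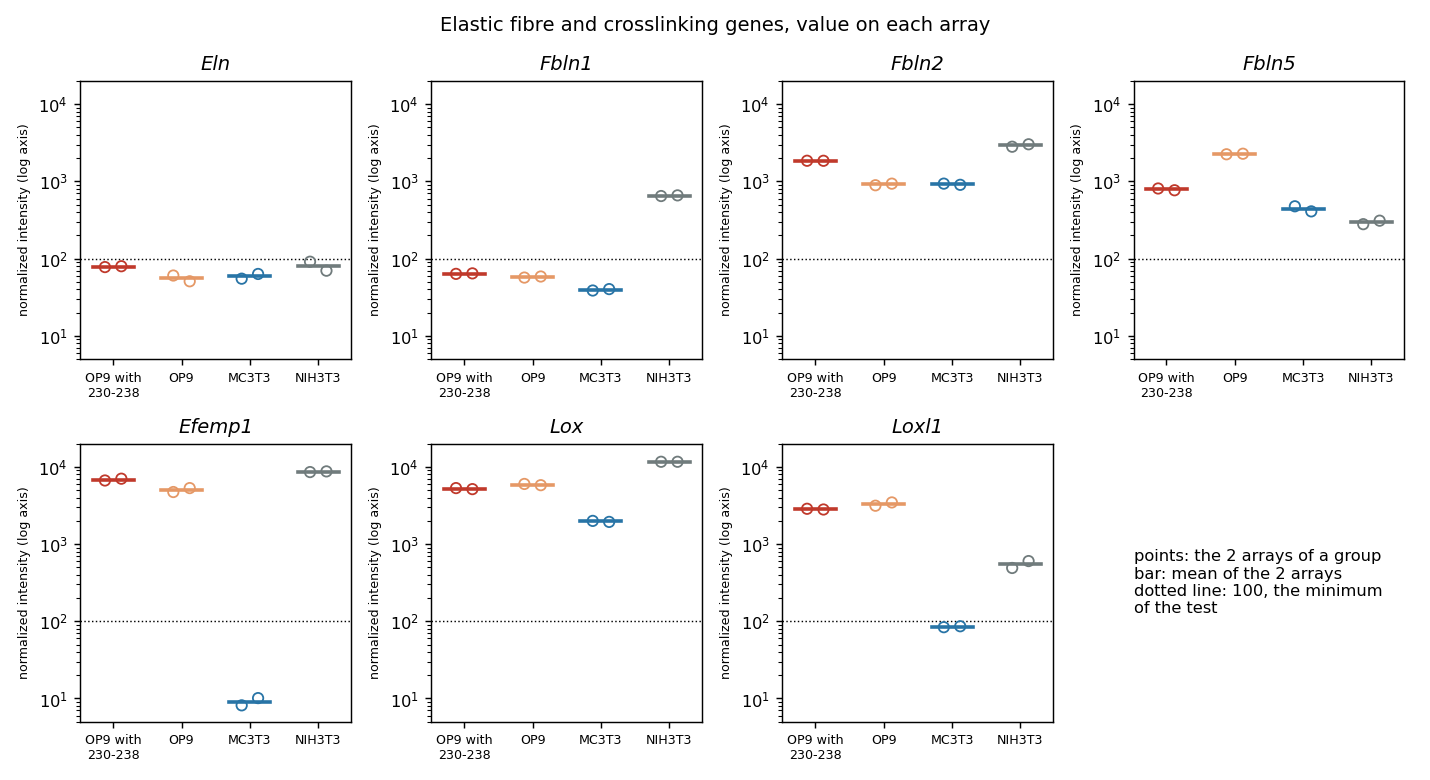
Normalized intensity (log axis) of the 7 genes with a probe set of their own, in OP9 cells with 230-238, OP9, MC3T3 and NIH3T3 cells. Points are the 2 arrays of a group, bars their mean and the dotted line the minimum of 100. Fbln5 is highest in OP9 cells without pre-B cells, at 2249 and 2287, and Efemp1 drops to 8.15 and 10.1 in MC3T3 cells.

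Some markers of blood cells, fat cells and smooth muscle also differed between co-cultured OP9 and OP9 cells. The 8 leukocyte markers summed to 505 to 516 in co-cultured OP9 cells, against 263 to 264 in OP9 cells, with 2 of 8 at 100 or more on both arrays against 0 of 8. Ptprc, the common leukocyte antigen, was at 34.6 and 31.1 in co-cultured OP9 cells, against 8.93 and 8.58 in OP9 cells. The 12 pre-B markers read summed to 990 to 993 in co-cultured OP9 cells, against 708 to 713 in OP9 cells, with 2 of 12 at 100 or more in both groups. This sum was 1255 to 1260 in NIH3T3 cells, with 4 of 12 at 100 or more, and 536 to 581 in MC3T3 cells. It therefore does not by itself mark pre-B cells. Cd24a was at 299 and 322 in co-cultured OP9 cells, 181 and 188 in OP9 cells, and 507 and 479 in NIH3T3 cells. The arrays of Ighm, Rag1 and Dntt overlapped between the OP9 groups. Vpreb1, part of the surrogate light chain of the pre-B receptor, was at 77.7 and 76.0 in co-cultured OP9 cells, against 25.8 and 21.6 in OP9 cells. The 6 fat cell markers read summed to 11766 to 11872 in co-cultured OP9 cells, against 34566 to 34597 in OP9 cells, with 5 of 6 and 6 of 6 at 100 or more on both arrays. The 6 smooth muscle markers summed to 1473 to 1642 in co-cultured OP9 cells, against 8331 to 9190 in OP9 cells, with 3 of 6 at 100 or more in both groups. Most of this sum was Acta2, at 1185 and 1317 in co-cultured OP9 cells, against 7844 and 8666 in OP9 cells. Tagln was lower as well, whereas Cnn1, Myh11, Myocd and Des did not fall. In such bulk samples, fewer cells of a type and less RNA per cell cannot be told apart, and the part of these cell types in the changes of Fbln2 and Fbln5 was not tested.

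The partners of the elastic fibre genes in the co-culture were read beside the same shares of all tested genes, 2.73% higher and 2.99% lower, and the same median of -0.05. Of 12 tested microfibril and elastic fibre partners, 2 rose and 0 fell, with a median log2 difference of 0.29. Ltbp2, whose product binds fibrillin-1 and fibulin-5, was at 3252 and 3391 in co-cultured OP9 cells, against 1387 and 1296 in OP9 cells (2.48-fold, adjusted p = 3.57e-05 from limma). Fbln7, a further fibulin, was at 230 and 245 in co-cultured OP9 cells, against 108 and 96.0 in OP9 cells (2.34-fold, adjusted p = 0.00014 from limma). Fbln7 passed the minimum only with its co-culture arrays, which favours a higher level there. Its direction and the count of this list are therefore a description. Ltbp2 moved in the direction of Fbln2.

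Among 13 tested relatives of the lysyl oxidases and genes of their activation and copper supply, 1 rose and 1 fell, with a median of 0.19. Loxl4, another collagen crosslinking enzyme, was at 231 and 208 in co-cultured OP9 cells, against 112 and 96.0 in OP9 cells (2.11-fold). Postn, encoding periostin, which assists the activation of lysyl oxidase by BMP1, was at 62.1 and 60.4 in co-cultured OP9 cells, against 379 and 475 in OP9 cells, a 6.93-fold lower level (adjusted p = 1.01e-05 from limma). Of 14 tested genes of collagen lysine and proline hydroxylation, only the prolyl hydroxylase gene P4ha2 was called, at 1792 and 1818 in co-cultured OP9 cells against 542 and 526 in OP9 cells (3.38-fold), and the median of the list was 0.22. Of 8 tested fibrillar collagen genes, only Col2a1, the collagen of cartilage, was called, with 2202 ± 3.05 in co-cultured OP9 cells and 912 ± 48.3 in OP9 cells (SD, n = 2 each), and the median of the list was 0.15.

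Among genes for the breakdown of elastin, Mmp9 had the largest fold. Of 11 tested elastases and inhibitors, 3 rose and 0 fell, with a median of 0.13. Mmp9, a gelatinase that also cleaves elastin, was at 1505 and 1622 in co-cultured OP9 cells, against 81.0 and 77.3 in OP9 cells (19.7-fold, adjusted p = 1.81e-07 from limma). Timp1, an inhibitor of metalloproteinases, rose 2.85-fold. Prtn3, a serine protease of neutrophils, was at 137 and 146 in co-cultured OP9 cells, against 64.7 and 76.7 in OP9 cells (2.01-fold). Mmp9 and Prtn3 passed the minimum only through their co-culture arrays, so they had to be higher there. The count of this list is therefore a description and supports no direction. Of 10 elastin receptor genes, with a median of -0.07, Lgals3 rose 2.32-fold and Cd36, best known as a fatty acid transporter, was at 133 and 134 in co-cultured OP9 cells, against 1885 and 2042 in OP9 cells. Of 13 tested TGF-beta targets and regulators, with a median of -0.03, Tgfbi rose 5.79-fold and Ccn2, encoding connective tissue growth factor, fell to 627 and 759 in co-cultured OP9 cells, against 1648 and 1689 in OP9 cells.

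Between the lines, OP9 cells carried more Fbln5 and Loxl1 and less Fbln1 and Fbln2 than NIH3T3 fibroblasts. By the same rule 2 of the 6 were higher in OP9 cells, beside 20.7% of all tested genes, and 2 lower, beside 10.4%. The median log2 difference was -0.89 over the 6 genes and 0.16 over all genes. Fbln1 passed the minimum only through its NIH3T3 arrays, so it had to differ, and this count and this median describe the genes without supporting a direction.

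Fbln5 was at 2249 and 2287 in OP9 cells, against 279 and 310.2 in NIH3T3 cells (log2 2.95, SE 0.09, 7.70-fold, adjusted p = 8.69e-08 from limma). Loxl1 was at 3146 and 3471 in OP9 cells, against 491 and 603 in NIH3T3 cells (log2 2.60, SE 0.11, 6.07-fold, adjusted p = 2.98e-07 from limma). For both genes every OP9 array lay above every NIH3T3 array. The second Loxl1 probe set, at 154 and 169 in OP9 cells against 44.5 and 44.7 in NIH3T3 cells, gave 3.62-fold in the same direction. Fbln1 was at 56.8 and 58.7 in OP9 cells, against 647 and 660 in NIH3T3 cells, an 11.3-fold lower level (adjusted p = 6.4e-09 from limma). Its second probe set was at 37.1 and 30.8 in OP9 cells against 193 and 185 in NIH3T3 cells, 5.60-fold lower, and the third lay below 100 on all arrays. Fbln2 was at 893 and 936 in OP9 cells, against 2818 and 3031 in NIH3T3 cells, a 3.20-fold lower level (log2 -1.68, SE 0.07, adjusted p = 3.49e-07 from limma).

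Lox lay just short of the 2-fold limit, with 6025 and 5807 in OP9 cells, against 11675.8 on both arrays of NIH3T3 cells, a 1.97-fold lower level (log2 -0.98, SE 0.06, adjusted p = 3.99e-06 from limma). The identical NIH3T3 values are 1 of 35 such pairs among the probe sets of that line, and the 4 groups had 30 to 43. Its second probe set, at 4287 and 4697 in OP9 cells against 13236 and 13122 in NIH3T3 cells, was called at 2.94-fold lower, and without OP9 replicate 1 the first was called as well, at a log2 difference of -1.01. Efemp1 was at 4734 and 5325 in OP9 cells, against 8588 and 8765 in NIH3T3 cells, 1.73-fold lower and not called (adjusted p = 0.00034 from limma). Eln was at 60.4 and 50.9 in OP9 cells, against 91.2 and 69.8 in NIH3T3 cells, and in the fit without the minimum its log2 difference was -0.53 (adjusted p = 0.0195 from limma), short of 2-fold.

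**Figure D2:**
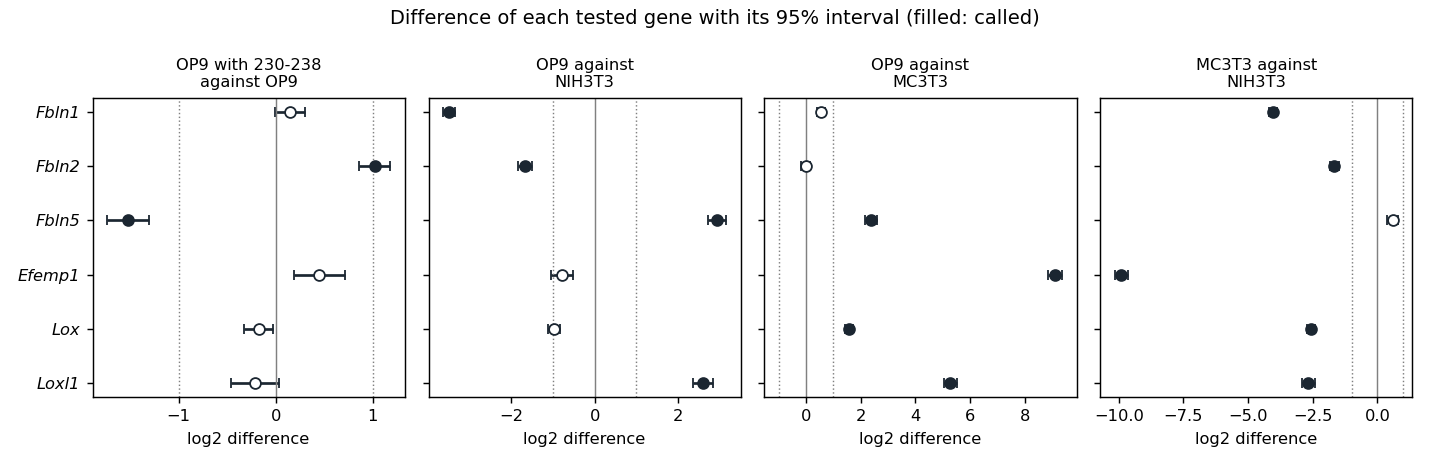
Log2 difference of each of the 6 tested genes in 4 comparisons, with its 95% interval from limma. Filled points were called, dotted lines mark 2-fold and a positive value means a higher level in the group named first. In the co-culture Fbln2 lies at 1.02 and Fbln5 at -1.52, and the widest differences are those of Efemp1 in the comparisons with MC3T3 cells.

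Against MC3T3 cells, OP9 cells had higher levels of Efemp1, Loxl1, Fbln5 and Lox, whereas the Fbln2 arrays of both lines overlapped. Of the 6 tested genes, 4 were called higher in OP9 cells, beside 10.6% of all tested genes, and 0 lower, beside 9.55%. The median log2 difference was 1.97 over the 6 genes and 0.03 over all genes.

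Efemp1 was at 4734 and 5325 in OP9 cells, against 8.15 and 10.1 in MC3T3 cells. The MC3T3 values lay at the 4.09th percentile of the probe sets of the array, close to the lowest value of the table, 5.99, so the fitted fold of 553 (log2 9.11, SE 0.11, adjusted p = 3.46e-09 from limma) depends on the background of the arrays. Loxl1 was at 3146 and 3471 in OP9 cells, against 83.9 and 86.3 in MC3T3 cells (38.8-fold, adjusted p = 1.55e-08 from limma). The second Loxl1 probe set, much dimmer, gave 4.54-fold for the same arrays. Fbln5 was at 2249 and 2287 in OP9 cells, against 476 and 409 in MC3T3 cells (5.13-fold, adjusted p = 3.98e-07 from limma). Lox was at 6025 and 5807 in OP9 cells, against 2001 and 1942 in MC3T3 cells (3.00-fold, adjusted p = 4.4e-07 from limma), and its second probe set gave 2.39-fold. For each of these genes both OP9 arrays lay above both MC3T3 arrays.

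Fbln2 was at 893 and 936 in OP9 cells, against 937 and 904 in MC3T3 cells. Its arrays overlapped between the lines, and its log2 difference of -0.01 had a 95% interval of -0.17 to 0.15 (adjusted p = 0.911 from limma). Fbln1 was below 100 in both lines, with 56.8 and 58.7 in OP9 cells against 38.6 and 40.3 in MC3T3 cells. Eln was at 60.4 and 50.9 in OP9 cells, against 55.0 and 63.3 in MC3T3 cells, and without the minimum its log2 difference was -0.09 (adjusted p = 0.715 from limma).

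MC3T3 cells had lower levels than NIH3T3 cells for all tested genes except Fbln5. Of the 6 tested genes, 5 were called lower in MC3T3 cells, beside 9.67% of all tested genes, and 0 higher, beside 18%. Fbln1 again passed the minimum only through the NIH3T3 arrays, so the count is a description. The median log2 difference was -2.62 over the 6 genes and 0.12 over all genes.

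Efemp1 was at 8.15 and 10.1 in MC3T3 cells, against 8588 and 8765 in NIH3T3 cells, the widest difference of the tested genes (log2 -9.90, SE 0.11, adjusted p = 1.28e-09 from limma). Fbln1 was at 38.6 and 40.3 in MC3T3 cells, against 647 and 660 in NIH3T3 cells, 16.6-fold lower (adjusted p = 4.12e-09 from limma). Lox was at 2001 and 1942 in MC3T3 cells, against 11675.8 on both NIH3T3 arrays, 5.92-fold lower (adjusted p = 3.47e-08 from limma). All 3 genes kept MC3T3 and NIH3T3 arrays apart by a wide margin. Loxl1 was at 83.9 and 86.3 in MC3T3 cells, against 491 and 603 in NIH3T3 cells, 6.40-fold lower (adjusted p = 3.18e-07 from limma). The second Loxl1 probe set, at 39.6 and 32 in MC3T3 cells against 44.5 and 44.7 in NIH3T3 cells, was not called, with a log2 difference of -0.33. Fbln2 was 3.17-fold lower, with 937 and 904 in MC3T3 cells against 2818 and 3031 in NIH3T3 cells. Fbln5 was at 476 and 409 in MC3T3 cells, against 279 and 310.2 in NIH3T3 cells, a log2 difference of 0.58 and not called (adjusted p = 0.00073 from limma).

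**Figure D3:**
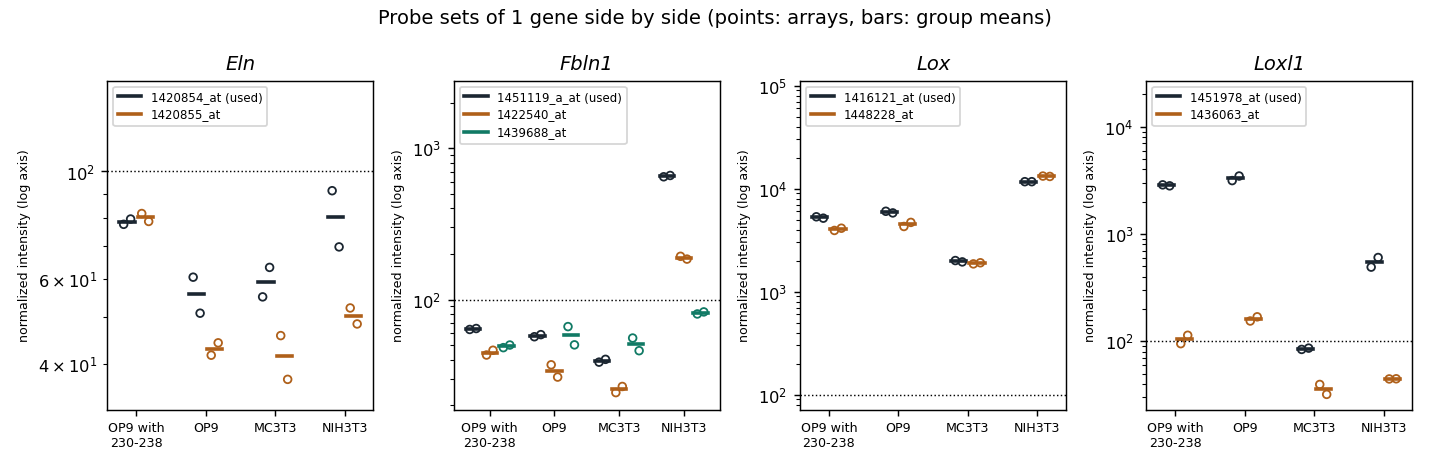
Normalized intensity (log axis) of the probe sets of Eln, Fbln1, Lox and Loxl1 in the 4 groups, without the third, dim probe set of Lox. Points are arrays, bars group means and the dotted line the minimum of 100. Both Lox probe sets are highest in NIH3T3 cells, and the second Loxl1 probe set does not exceed 169 on any array.

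The order of the groups differed among the genes. Fbln1 was highest in NIH3T3 cells and lowest in MC3T3 cells, and the OP9 groups between them did not differ by the test. Fbln2 was highest in NIH3T3 cells, then in co-cultured OP9 cells, and lowest in OP9 and MC3T3 cells, which did not differ beyond their spread. Fbln5 had the order OP9, co-cultured OP9, MC3T3 and NIH3T3 cells, and its arrays did not overlap between any of these groups. Efemp1 had the order NIH3T3, co-cultured OP9, OP9 and MC3T3 cells. Lox was highest in NIH3T3 cells and lowest in MC3T3 cells, with OP9 cells and co-cultured OP9 cells next to each other. Loxl1 was highest in OP9 cells, next to co-cultured OP9 cells, then in NIH3T3 and MC3T3 cells. For Lox and Loxl1 the neighbours OP9 and co-cultured OP9 did not pass the test.

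To place the co-culture in these orders, it was also set against the other lines. Against NIH3T3 cells, 2 of the 6 genes were higher in co-cultured OP9 cells, beside 19.5% of all tested genes, and 2 lower, beside 11.2%. Fbln1, 1 of those lower at 10.2-fold, again passed the minimum only through the NIH3T3 arrays, so this count is a description. Fbln5 was 2.68-fold higher in co-cultured OP9 than in NIH3T3 cells, and Loxl1 5.22-fold higher. Lox was 2.23-fold lower in co-cultured OP9 than in NIH3T3 cells, and Fbln2, with a log2 difference of -0.66, was not called. Against MC3T3 cells, 4 of the 6 genes were higher in co-cultured OP9 cells, beside 11.6% of all tested genes, and 0 lower, beside 11.5%. These were Efemp1, Loxl1, Lox and Fbln2, the last at 2.01-fold, and its call ended at a log2 difference of 0.96 with median scaling, 0.997 with the pseudocount of 16, 0.56 with the mean of the probe sets and 0.98 without MC3T3 replicate 2. Fbln5 had a log2 difference of 0.84 against MC3T3 cells and was not called. These comparisons share arrays with those above and add no independent measurement.

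Over the 8 arrays, Efemp1 and Lox had a correlation of 0.90, Fbln1 and Fbln2 of 0.86 and Efemp1 and Loxl1 of 0.85, and Fbln2 and Fbln5 of -0.60. These values describe 4 groups of paired arrays and not 8 independent points. Efemp1 lay near the bottom of the scale in MC3T3 cells, and Fbln1 below 100 outside NIH3T3 cells. Outside MC3T3 cells, Efemp1 and Loxl1 had opposite orders. In NIH3T3, co-cultured OP9 and OP9 cells the means were 8676, 6864 and 5030 for Efemp1 and 547, 2842 and 3309 for Loxl1. The genes outside the set whose pattern lay closest to Lox, by the root mean square of the differences of mean-centred log2 values over the 8 arrays among 10095 genes, were Tspan5 (0.08), Ccng2 (0.13) and Twist2 (0.15). Tspan5 was at 211 and 186 in co-cultured OP9 cells, 247 and 256 in OP9 cells, 76.9 and 76.1 in MC3T3 cells and 481 and 447 in NIH3T3 cells. Closest to Efemp1 were Lpl (0.965), the lipoprotein lipase gene, Mgst1 (0.998) and Angptl4 (1.496), all of them below 50 in MC3T3 cells. Closest to Eln were Nsl1 (0.10), Ankzf1 (0.10) and Gm11517 (0.10). Eln lay below 100 on every array, and its probe sets differed in pattern, so this likeness is a description of low values. NIH3T3 and co-cultured OP9 cells had Eln means of 80.5 and 78.7 on the probe set used and 50.2 and 80.3 on the other.

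Between the lines, the counts of partner genes stand beside the shares of all tested genes given above, which were 20.7% higher and 10.4% lower in OP9 against NIH3T3 cells, 10.6% and 9.55% in OP9 against MC3T3 cells, and 18% and 9.67% in MC3T3 against NIH3T3 cells. The medians of all genes in these comparisons were 0.16, 0.03 and 0.12, and those of each list are given in the same order of comparisons. Of 12 tested microfibril and elastic fibre partners, OP9 cells had 3 at a higher and 3 at a lower level than NIH3T3 cells. Ltbp2 was at 1387 and 1296 in OP9 cells, against 70.5 and 63.5 in NIH3T3 cells (log2 4.32, SE 0.09, adjusted p = 9.56e-09 from limma). Emilin2, from a family of glycoproteins at the surface of elastic fibres, was at 172 and 167 in OP9 cells, against 1705 and 1600 in NIH3T3 cells (9.73-fold lower). Mmrn2, of the same family and best known from endothelium, was at 19.3 and 19.8 in OP9 cells, against 468 and 356 in NIH3T3 cells. It passed the minimum only through its NIH3T3 arrays, so the counts of this list against NIH3T3 cells are a description. Against MC3T3 cells, 3 partners were higher and 2 lower in OP9 cells, among them Ltbp2, 20.1-fold higher, and Emilin1, at 1817 and 1732 in OP9 cells against 314 and 313 in MC3T3 cells. Of the 12, 0 were higher and 3 lower in MC3T3 than in NIH3T3 cells, and the medians of the list were 0.15, 0.02 and 0.08.

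Of 13 tested relatives and activators of the lysyl oxidases, OP9 cells had 3 at a higher and 2 at a lower level than NIH3T3 cells, and 0 at a higher and 4 at a lower level than MC3T3 cells. Bmp1, encoding the protease that frees active lysyl oxidase, was at 417 and 438 in OP9 cells, against 128 and 101 in NIH3T3 cells (3.75-fold, adjusted p = 2.46e-06 from limma). Loxl4 was at 112 and 96.0 in OP9 cells, against 578 and 466 in NIH3T3 cells, 5.01-fold lower. Fmod, encoding fibromodulin, which binds collagen and lysyl oxidase, was at 26.4 and 30.5 in OP9 cells, against 958 and 1263 in MC3T3 cells. Pcolce2, an enhancer of procollagen cleavage, was at 7.95 and 11.1 in OP9 cells, against 311 and 306 in MC3T3 cells. Postn was at 379 and 475 in OP9 cells, against 1970 and 2249 in MC3T3 cells. All 3 of these genes were higher in MC3T3 than in OP9 cells. Fmod and Pcolce2 passed the minimum only through their MC3T3 arrays, so they had to be higher there. Tnxb of the same list passed it only through its NIH3T3 arrays, so the counts of this list between the lines are a description. Between MC3T3 and NIH3T3 cells 5 of the 13 were higher and 2 lower, with Postn at 1970 and 2249 in MC3T3 cells against 31.9 and 40.1 in NIH3T3 cells. The medians of this list were 0.16, -0.28 and 0.37.

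The fibrillar collagens are substrates of the lysyl oxidases, and the hydroxylation genes prepare them. Of 8 tested fibrillar collagens, OP9 cells had 5 above and 0 below their NIH3T3 level and 2 above and 1 below their MC3T3 level, and MC3T3 cells had 5 above and 1 below the NIH3T3 level, with medians of 1.56, 0.28 and 1.14. Col1a1 was at 9986 and 10568 in OP9 cells, against 3542 and 2906 in NIH3T3 cells (3.20-fold, adjusted p = 2.1e-06 from limma). Col3a1 was at 2722 and 2787 in OP9 cells, against 455 and 433 in NIH3T3 cells (6.21-fold). Of 14 tested hydroxylation genes, OP9 cells had 5 above and 4 below their NIH3T3 level and 2 above and 1 below their MC3T3 level, and MC3T3 cells had 5 above and 3 below the NIH3T3 level, with medians of 0.50, 0.37 and 0.14. Crtap, part of the complex that hydroxylates prolines of collagen at the 3 position, was at 2554 and 2899 in OP9 cells, against 24.7 and 23.1 in NIH3T3 cells (114-fold). Plod1, a lysyl hydroxylase gene, was at 377 and 362 in MC3T3 cells, against 3256 and 3457 in NIH3T3 cells.

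Receptors, proteases and growth factor genes completed the lists. Of 11 tested elastases and inhibitors, OP9 cells had 7 above and 0 below their NIH3T3 level and 3 above and 2 below their MC3T3 level, and MC3T3 cells had 5 above and 0 below the NIH3T3 level, with medians of 1.25, 0.76 and 0.82. Ctsk, encoding the collagen and elastin cleaving cathepsin K, was at 1247 and 1164 in OP9 cells, against 41.0 and 26.1 in NIH3T3 cells. Timp3 was at 388 and 391 in OP9 cells, against 2666 and 2501 in MC3T3 cells. Prtn3, 1 of the 3 above the MC3T3 level, was at 64.7 and 76.7 in OP9 cells, against 32.9 and 31.4 in MC3T3 cells. These values lie below the minimum, which Prtn3 passed only through its co-culture arrays. Of 10 elastin receptor genes, OP9 cells had 2 above and 2 below their NIH3T3 level and 2 above and 1 below their MC3T3 level, and MC3T3 cells had 0 above and 1 below the NIH3T3 level, with medians of 0.42, 0.40 and 0.00. Of 13 tested TGF-beta targets and regulators, OP9 cells had 2 above and 5 below their NIH3T3 level and 2 above and 1 below their MC3T3 level, and MC3T3 cells had 1 above and 5 below the NIH3T3 level, with medians of -0.60, 0.34 and -0.56. Tgfb2, a ligand of this pathway, was at 1078 and 1107 in OP9 cells, against 22.8 and 17.7 in NIH3T3 cells (54.4-fold, adjusted p = 1.14e-08 from limma).

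**Figure D4:**
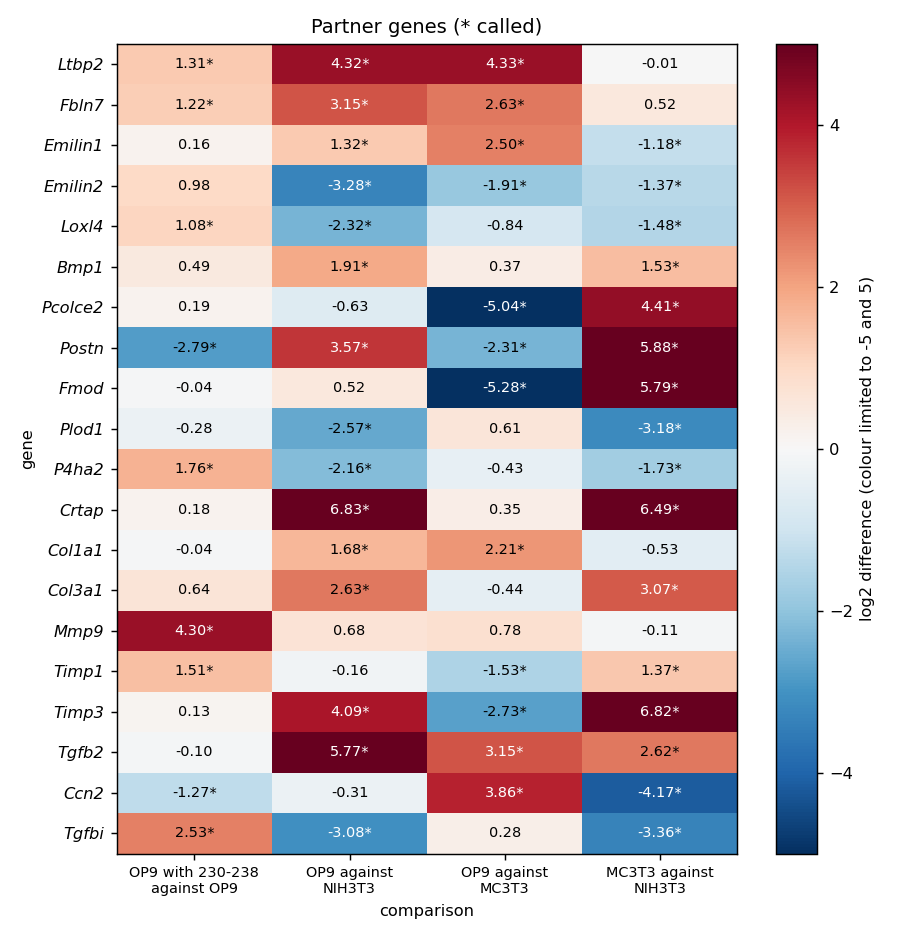
Log2 differences of 20 partner genes in 4 comparisons, in colour limited to -5 and 5 and as numbers, with a star where the gene was called. A positive value means a higher level in the group named first. Mmp9 stands out in the co-culture at 4.30, but it passed the minimum only through its co-culture arrays. Ltbp2 is higher in OP9 cells than in both other lines, at 4.32 and 4.33.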

How the data were processed

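RNA of 4 groups, assigned from the sample titles, was hybridised to 8 Affymetrix mouse arrays, 2 per group. The authors deposited linear intensities, already normalized between arrays. For normalization and analysis RMA Express, affylmGUI and dChip are named in the methods, and the program behind the deposited table is not stated in the sources used here. Of 45101 probe sets, 34958 had 1 gene symbol in the array annotation, 932 several and 9211 none.

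Logarithms to base 2 were taken without adding a pseudocount. Each gene was read from the brightest of its probe sets by mean, and those reaching 100 on 2 or more arrays were tested with limma 3.58.1 in R 4.3.3 (lmFit and eBayes on the means of all 4 groups, 4 residual degrees of freedom, Benjamini-Hochberg over 10101 genes). Calls needed an adjusted p under 0.05 and 2-fold or more. The model was tested on simulated data. The members, the partner and marker lists and the tests were chosen with earlier results of these data known. Named were all members and the 3 genes closest in pattern to Eln, Lox and the member of the widest range. Partner genes were drawn from the 4 called genes with the largest fold of each list and comparison, and not all of these were named. Promoter windows came from RefSeq on GRCm38.p6. Alternatives covered filters, scaling, adding 16 before the logarithm, fitting only the arrays of both groups, a trended robust prior, a block for the replicate number, the choice of probe sets, no minimum fold and leaving out each array.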

Additional observations from a re-analysis of the deposited data

How the results depend on the processing

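The log2 differences of the 6 tested genes kept their direction in all comparisons under every alternative run, except that Fbln2 in OP9 against MC3T3 cells, at -0.01, was 0.02 without OP9 replicate 1 and 0.02 without MC3T3 replicate 1. Of 666 such values, 653 kept their side of the threshold. Quantile normalization set the median of all genes to 0.02 in place of 0.16 in OP9 against NIH3T3 cells and to 0.01 in place of 0.12 in MC3T3 against NIH3T3 cells, and left every call of the 6 genes as it was. In co-cultured OP9 against OP9 cells the number of called genes was 2, and it was 1 with median scaling, 0 with the mean of the probe sets and 3 with no minimum fold. In co-cultured OP9 against NIH3T3 cells it was 4, and 2 with the mean of the probe sets. With no minimum fold, it was 6 in OP9 against NIH3T3 cells, 6 in co-cultured OP9 against NIH3T3 cells and 6 in co-cultured OP9 against MC3T3 cells. Leaving out 1 array at a time gave 1 to 2 called genes for co-cultured OP9 against OP9 cells, 4 to 5 for OP9 against NIH3T3 cells and 3 to 4 for co-cultured OP9 against MC3T3 cells, and 4, 5 and 4 throughout in OP9 against MC3T3, MC3T3 against NIH3T3 and co-cultured OP9 against NIH3T3 cells. Fbln2 in co-cultured OP9 against MC3T3 cells lost its call at 0.96 with median scaling, 0.997 with the pseudocount of 16, 0.56 with the mean of the probe sets and 0.98 without MC3T3 replicate 2. The mean of the probe sets also ended the calls of Fbln5 and Lox in co-cultured OP9 against NIH3T3 cells, at 0.66 and -0.88. It averages in probe sets of low values, and the cause of the other changes was not tested.

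The deviations of equally numbered arrays had correlations between -0.0044 and 0.182. After normalization between arrays, such values cannot show whether equally numbered arrays were processed together. With the replicate number as a block, 2 of the 6 genes were called in co-cultured OP9 against OP9 cells, 4 in OP9 against NIH3T3, 4 in OP9 against MC3T3 and 5 in MC3T3 against NIH3T3 cells, as without it. Over all genes, only dropping the minimum fold moved the number of calls by more than 1.5 times, to 4312 in place of 578 for co-cultured OP9 against OP9 cells, 7880 in place of 3147 for OP9 against NIH3T3, 6731 in place of 2034 for OP9 against MC3T3 and 7560 in place of 2793 for MC3T3 against NIH3T3 cells, and to 7790 in place of 3099 and 7069 in place of 2332 for co-cultured OP9 against NIH3T3 and MC3T3 cells. Values near the bottom of the scale, such as Eln in all groups, Fbln1 outside NIH3T3 cells and Efemp1 in MC3T3 cells, hold background signal, which limits their fold changes.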
